A study of Mus musculus with 6 samples.

Results

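Itaconate synthesis, dicarboxylate transport and arginine metabolism were followed through 7 genes in cultured mouse macrophages: Acod1, Slc13a3, Nos2, Arg1, Arg2, Ass1 and Asl. The genes were taken by name, each from the probe sets annotated with exactly 1 symbol, and all 7 were found, with 1 probe set each, among the 22180 genes measured. They were chosen by name with earlier results of these arrays known, Acod1 and Slc13a3 being selected on their log2 differences between FSL-1 and M-CSF arrays. Acod1 and Slc13a3 had been listed there among the highest differences between FSL-1 and M-CSF cultures, so their differences from M-CSF are given here as a description, with no test.

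Bone marrow cells of C57Bl/6 mice were grown for 5 days in 20 ng/ml M-CSF, the growth factor that makes macrophages from monocyte precursors, and were then replated for 6 days. The groups were FSL-1 + nutlin-3a (20 ng/ml FSL-1 and 10 µM nutlin-3a), FSL-1 alone (20 ng/ml) and M-CSF alone (50 ng/ml), with 2 arrays each. FSL-1 is a synthetic lipopeptide that activates TLR2 with TLR6, and the series design names the cells studied beside the macrophages multinucleated giant cells. Nutlin-3a keeps Mdm2 from binding p53 and so slows p53 breakdown, and was added here to raise active p53. RNA came from sorted cells. The sources used here give neither the sort gate nor whether M-CSF was present during the FSL-1 treatment.

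Acod1 encodes the mitochondrial enzyme that makes itaconate from cis-aconitate, an intermediate of the TCA cycle, and mouse macrophages are known to switch it on when Toll-like receptors are engaged. Slc13a3 encodes NaDC3, a sodium-coupled carrier of the plasma membrane that imports dicarboxylates such as succinate, and has been described to take up itaconate. Arginine is the substrate of 2 competing routes in mouse macrophages. Nos2, the inducible nitric oxide synthase, turns it into nitric oxide and citrulline, while the arginases Arg1 (cytosolic) and Arg2 (mitochondrial) turn it into ornithine and urea. Ass1 and Asl rebuild arginine from citrulline and aspartate.

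Expression is given as log2 values per probe set, as the authors deposited them after RMA. A difference of 1 on this scale is a factor of 2. Across the 22180 genes, the 3 replicate pairs had correlations of 0.9929 to 0.9951, against 0.9788 to 0.9858 for the 12 pairs that cross groups, and the median SD between replicates was 0.0917 to 0.106. A gene was called when its adjusted p in a limma fit over all genes was under 0.05. By that rule 6.86% of all genes were called for FSL-1 against M-CSF, 6.5% for FSL-1 + nutlin-3a against FSL-1 and 9.51% for FSL-1 + nutlin-3a against M-CSF. These comparisons share arrays, so they are not independent of each other. Nothing in the labels says that the replicates came from separate cultures or animals, and p-values measure only the spread between these arrays, whose small number limits the precision of every value. The macrophage markers Cd68 and Lyz2 both averaged 13.2 over the arrays, and the 8 macrophage markers of the list averaged 11.1 to 11.4 on each of the 6 arrays. Of these 8, Fcgr1 and Cd14 fell with nutlin-3a against FSL-1, by 1.58 and 1.12 on the log2 scale (limma adjusted p = 0.00228 and 0.00235), each kept without any 1 compared array. Of the same 8, 3 were called for FSL-1 against M-CSF: Itgam (0.74) and Adgre1 (0.56) rose and Csf1r fell (-0.87), with limma adjusted p = 0.00987, 0.0253 and 0.00858. The Adgre1 call was lost without any 1 compared array, and the other two were kept only without M-CSF replicate 2.

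The promoters of the pair that moved, Acod1 and Slc13a3, are shown as the 250 bases before the annotated start, 5′ to 3′ on the gene's strand (RefSeq, GRCm38.p6). RefSeq promoters were found for 3 of the 7 genes, the other being Ass1. The Acod1 stretch lies at chr14:103046762-103047011 on the plus strand and the Slc13a3 stretch at chr2:165473198-165473447 on the minus strand. Capitals mark every match to 9 motifs, searched on both strands and listed after the sequences.
Acod1: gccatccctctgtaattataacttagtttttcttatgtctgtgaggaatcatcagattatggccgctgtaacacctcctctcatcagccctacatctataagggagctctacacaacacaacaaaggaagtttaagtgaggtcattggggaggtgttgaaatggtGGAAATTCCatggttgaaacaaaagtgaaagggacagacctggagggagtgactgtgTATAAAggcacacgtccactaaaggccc
Slc13a3: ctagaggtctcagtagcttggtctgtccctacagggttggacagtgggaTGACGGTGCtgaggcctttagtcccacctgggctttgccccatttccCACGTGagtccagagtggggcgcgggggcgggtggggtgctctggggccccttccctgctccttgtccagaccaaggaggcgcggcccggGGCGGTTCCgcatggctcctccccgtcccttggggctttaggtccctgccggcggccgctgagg

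The motifs were chosen after the sequences had been seen. GGNNNTTCC, a form bound by NF-kB, occurred in both promoters, at bases 85 to 77 before the start in Acod1 (there on both strands, as the match is a palindrome) and at bases 64 to 56 in Slc13a3. It was present in 15.7% of the 32851 promoter windows of this length. Acod1 also held the TATA box TATAAA at bases 28 to 23, found in 12.4% of windows. Slc13a3 held none, but had the E-box CACGTG at bases 154 to 149 (6.02% of windows) and TGACNNNGC, an NRF2-type element, at bases 201 to 193 (10.2%). Ass1 held the E-box only. In none of the 3 windows was there a match to TGANTCA (AP-1, 6.75%), TTGCNNAA (C/EBP, 9.56%), TTCNNNGAA (STAT factors, 7.02%), the ISRE core of IRF factors (2.98%) or the paired core of the p53 element (0.49%). No matches overlapped. The Acod1 window was 44.4% G and C with 2 CpG sites, the Slc13a3 window 67.6% with 14 and the Ass1 window 75.6% with 23, against medians of 52.4% and 6 over all windows. A match is a description of the letters and not a site shown to be bound.

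Acod1 was high in both FSL-1 groups and lower with nutlin-3a than without it. It read 8.34 and 8.04 on the FSL-1 + nutlin-3a arrays, 10.09 and 9.96 on the FSL-1 arrays, and 5.46 and 5.49 on the M-CSF arrays. No groups overlapped, and the M-CSF values lay close to 5.51, the median level of all genes. The group means were 8.19 ± 0.21 in FSL-1 + nutlin-3a, 10.03 ± 0.09 in FSL-1 and 5.47 ± 0.03 in M-CSF (SD, n = 2 each). With nutlin-3a Acod1 fell 3.57-fold against FSL-1 alone (log2 difference -1.84, SE 0.136, limma adjusted p = 0.000409). The 2 FSL-1 arrays of this test are also those on which Acod1 and Slc13a3 were selected as high, which favours a decrease, so the p-values of both genes here are not free of that choice. It still read 6.57-fold above M-CSF in the FSL-1 + nutlin-3a cultures, against 23.5-fold for FSL-1 alone. The background level of the arrays is unknown, so folds against a low M-CSF reading, here and for the other genes, are differences between array readings and may understate the change in RNA. The call with nutlin-3a held without any 1 of the 4 compared arrays, at log2 differences of -1.98 to -1.69.

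Slc13a3 was also high in both FSL-1 groups and lower with nutlin-3a. It read 10.24 and 10.49 on the FSL-1 + nutlin-3a arrays, 11.34 and 11.14 on the FSL-1 arrays, and 5.84 and 5.73 on the M-CSF arrays. Again no groups overlapped. The means were 10.37 ± 0.17 in FSL-1 + nutlin-3a, 11.24 ± 0.14 in FSL-1 and 5.79 ± 0.08 in M-CSF (SD, n = 2 each). It fell 1.84-fold with nutlin-3a against FSL-1 alone (log2 difference -0.88, SE 0.138, limma adjusted p = 0.0112, on the same selected FSL-1 arrays), a call lost without FSL-1 + nutlin-3a replicate 1 (adjusted p = 0.0672) or FSL-1 replicate 1 (adjusted p = 0.0939). In FSL-1 + nutlin-3a cultures it read 23.9-fold above M-CSF, against 43.9-fold with FSL-1 alone. By size of difference from M-CSF it ranked 3 of 22180 genes in FSL-1 + nutlin-3a and 1 in FSL-1.

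**Figure D1:**
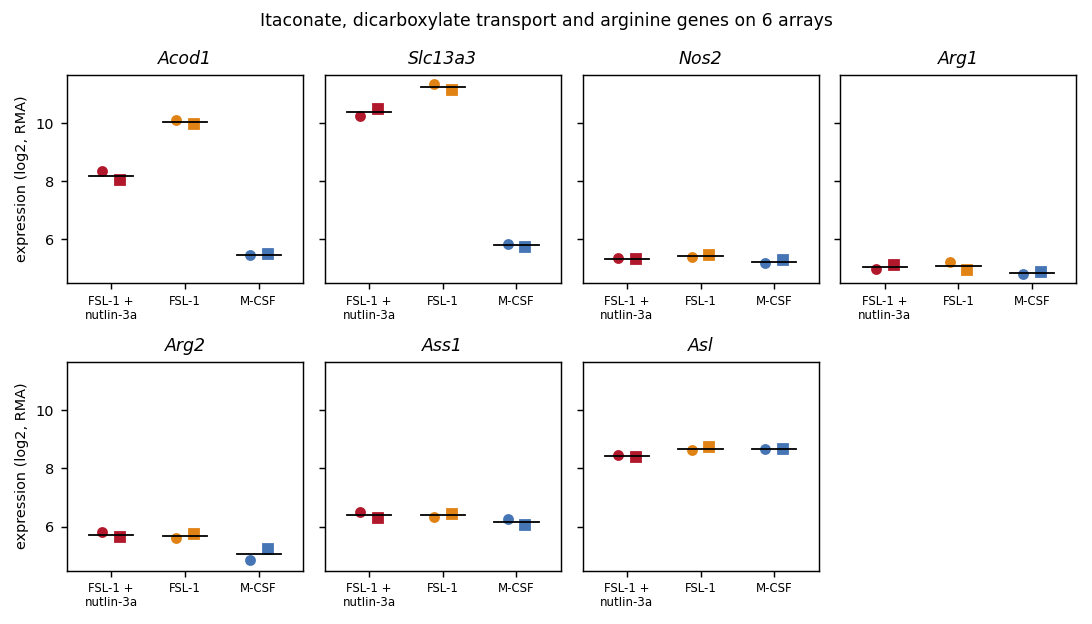
Expression (log2, RMA) of the 7 genes on each array, with FSL-1 + nutlin-3a in red, FSL-1 in orange and M-CSF in blue; circles are replicate 1, squares replicate 2 and bars the group means. Acod1 and Slc13a3 separate the 3 groups, while the other 5 genes stay within 0.68 between group means.

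The falls of Acod1 and Slc13a3 were set side by side within arrays. The log2 value of Acod1 minus that of Slc13a3 within an array was -1.91 and -2.45 in FSL-1 + nutlin-3a and -1.25 and -1.18 in FSL-1. The difference of means was -0.96, with no overlap of the arrays. With 2 arrays against 2 an exact two-sided permutation test cannot give a p under 0.333, so whether the falls differ could not be tested. Replicate order also differed, as Acod1 was higher on FSL-1 + nutlin-3a replicate 1 and Slc13a3 on replicate 2.

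Nos2 was not called in any comparison. It read 5.34 and 5.32 in FSL-1 + nutlin-3a, 5.41 and 5.45 in FSL-1, and 5.17 and 5.29 in M-CSF, all below the median level of all genes. The whole range on 6 arrays was 5.17 to 5.45. The log2 difference was -0.10 for FSL-1 + nutlin-3a against FSL-1 (95% interval -0.36 to 0.16, limma adjusted p = 0.697) and 0.19 for FSL-1 against M-CSF (-0.07 to 0.46, adjusted p = 0.397). The upper bound for FSL-1 against M-CSF is a 1.37-fold increase of Nos2. No detection calls were used, and a value near 5 may hold little signal.

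Of the arginase genes, Arg1 was not called in any comparison. It read 4.98 and 5.10 in FSL-1 + nutlin-3a, 5.22 and 4.92 in FSL-1, and 4.81 and 4.87 in M-CSF. The FSL-1 arrays enclosed both FSL-1 + nutlin-3a arrays. Its log2 difference was -0.03 with nutlin-3a against FSL-1 (95% interval -0.34 to 0.28, limma adjusted p = 0.935) and 0.23 for FSL-1 against M-CSF (-0.08 to 0.54, adjusted p = 0.406). Arg1 averaged 4.98 over the arrays, lower than Nos2 at 5.33, so its values too may hold little signal.

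Arg2 read 5.82 and 5.62 in FSL-1 + nutlin-3a, 5.61 and 5.73 in FSL-1, and 4.86 and 5.22 in M-CSF, so that every array with FSL-1 lay above both M-CSF arrays. It was 1.60-fold higher in FSL-1 + nutlin-3a than in M-CSF (log2 difference 0.68, SE 0.153, limma adjusted p = 0.0302) and 1.55-fold higher in FSL-1 than in M-CSF (log2 difference 0.63, adjusted p = 0.0498). These were the only calls among the 5 genes tested against M-CSF. They stand close to the threshold: the FSL-1 call was lost without M-CSF replicate 1 (adjusted p = 0.24) or without either FSL-1 array (0.167 and 0.235). The FSL-1 + nutlin-3a call was lost without M-CSF replicate 1 (adjusted p = 0.149) or either FSL-1 + nutlin-3a array (0.144 and 0.0697). Between FSL-1 + nutlin-3a and FSL-1 the Arg2 values overlapped (log2 difference 0.05, adjusted p = 0.904).

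The recycling enzymes were not called. Ass1 read 6.49 and 6.31 in FSL-1 + nutlin-3a, 6.35 and 6.44 in FSL-1, and 6.27 and 6.06 in M-CSF. Its log2 difference was 0.01 with nutlin-3a against FSL-1 (95% interval -0.30 to 0.31, limma adjusted p = 0.989) and 0.22 for FSL-1 against M-CSF (-0.08 to 0.53, adjusted p = 0.401). Asl, whose level was well above the median of all genes, read 8.46 and 8.41 in FSL-1 + nutlin-3a, 8.63 and 8.73 in FSL-1, and 8.67 and 8.66 in M-CSF. Both FSL-1 + nutlin-3a arrays lay below the other 4 arrays, with a log2 difference of -0.24 against FSL-1 (95% interval -0.50 to 0.02, adjusted p = 0.267) and of -0.23 against M-CSF (adjusted p = 0.262).

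**Figure D2:**
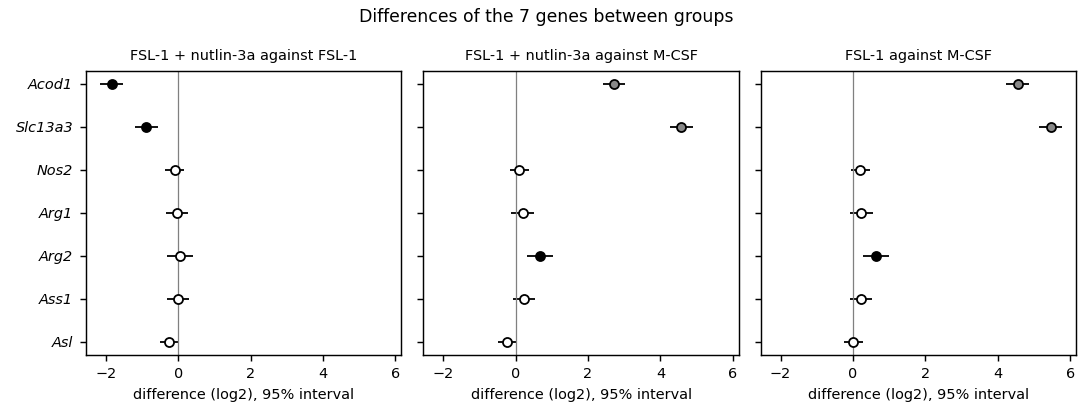
Log2 differences of the 7 genes in 3 comparisons, with 95% intervals from the limma fit; black points were called, white points were not and grey points are described with no test. Acod1 and Slc13a3 lie left of 0 for FSL-1 + nutlin-3a against FSL-1 and far right of 0 in both comparisons with M-CSF, where Arg2 was the other gene off 0.

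For FSL-1 + nutlin-3a against FSL-1, 2 of the 7 genes were called, both lower, beside 4.12% of all genes called lower and 2.38% called higher. For FSL-1 against M-CSF, 1 of the 5 tested genes was called, beside 3.91% of all genes called higher and 2.95% lower, and for FSL-1 + nutlin-3a against M-CSF 1 of 5, beside 4.58% higher and 4.94% lower. The arrays of the groups did not overlap for 4 of the 7 genes between FSL-1 + nutlin-3a and FSL-1 (50.9% of all genes), 6 of 7 between FSL-1 and M-CSF (50.2%) and 7 of 7 between FSL-1 + nutlin-3a and M-CSF (51.5%). Since the genes were chosen with results known, nothing is read from these shares.

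The genes nearest in pattern were found by the root mean square difference of the 6 array values after each gene's own mean was subtracted, which is a measure over 6 arrays in 3 groups. Nearest to Acod1 were Pdpn, the membrane glycoprotein podoplanin (0.258), Il1rn, the interleukin-1 receptor antagonist (0.354), and Lox, which cross-links collagen (0.40). Pdpn averaged 9.31 in FSL-1 + nutlin-3a, 10.57 in FSL-1 and 6.46 in M-CSF. Nearest to Slc13a3 were the serum amyloid Saa3 (0.36), Lox (0.438) and the metalloproteinase Mmp14 (0.502). Their log2 differences for FSL-1 + nutlin-3a against FSL-1 were -1.61 for Saa3, -1.48 for Lox and 0.30 for Mmp14, beside -0.88 for Slc13a3.

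Around these genes 10 lists of 126 pathway genes were described, of which 116 were measured and 10 are not analysed here. The lists, too, were written with earlier results of these arrays known. For FSL-1 + nutlin-3a against FSL-1, 6 of the 116 were higher and 12 lower (15.5% called, against 6.5% of all genes), with a median log2 difference of -0.04 against 0.02 over all genes. For FSL-1 against M-CSF, 20 were higher and 4 lower (20.7%, against 6.86%), with a median of 0.04 against -0.01. For FSL-1 + nutlin-3a against M-CSF, 13 were higher and 9 lower (19%, against 9.51%), with a median of -0.0006 against 0.02. With 1 of the 4 compared arrays left out, the 18 calls of the first comparison became 4 to 7, the 24 of the second 8 to 16 and the 22 of the third 15 to 18.

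**Figure D3:**
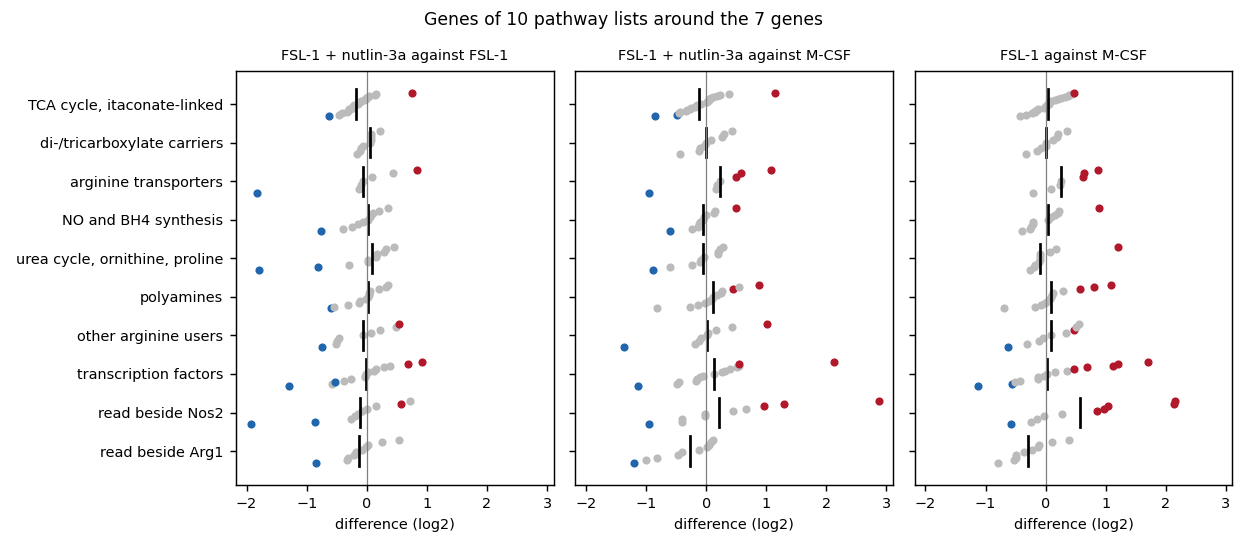
Log2 differences of the genes of 10 pathway lists in 3 comparisons; each point is a gene, red when called higher, blue when called lower and grey when not called, and black bars are list medians. Most list medians lie near 0, and the median farthest from 0 is 0.57, for the genes read beside Nos2 in FSL-1 against M-CSF. The points farthest left for FSL-1 + nutlin-3a against FSL-1 are Cd86, Slc7a1 and Aldh18a1.

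Arginine transporters changed on both sides. With nutlin-3a, 1 of 7 fell and 1 rose against FSL-1 (list median -0.07). Slc7a1, the main cationic amino acid transporter of many cells, read 6.19 and 5.97 in FSL-1 + nutlin-3a, 7.97 and 7.84 in FSL-1, and 6.82 and 7.25 in M-CSF. It fell by 1.83 on the log2 scale with nutlin-3a against FSL-1 (SE 0.167, limma adjusted p = 0.00119), a call kept without any 1 of the 4 compared arrays, and the FSL-1 + nutlin-3a arrays lay below the M-CSF arrays as well (log2 difference -0.96, adjusted p = 0.0105, lost without FSL-1 + nutlin-3a replicate 2).

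Slc7a2, the transporter that supplies arginine to Nos2 in activated mouse macrophages, went the other way. It read 6.87 and 6.66 in FSL-1 + nutlin-3a, 5.88 and 5.96 in FSL-1, and 5.75 and 5.62 in M-CSF. It rose by 0.84 (log2) against FSL-1 (limma adjusted p = 0.00927, kept only without FSL-1 + nutlin-3a replicate 2 among the 4 compared arrays) and by 1.08 against M-CSF (adjusted p = 0.00164, kept without any 1 compared array). For FSL-1 against M-CSF, 3 of 7 transporters rose and none fell (list median 0.26): Slc7a1 by 0.87, Slc7a6 by 0.64 and Slc3a2, the heavy chain shared by several of these carriers, by 0.63 (adjusted p = 0.0153 to 0.0264). The Slc7a6 and Slc3a2 calls were lost without any 1 of the 4 compared arrays and the Slc7a1 call without all but M-CSF replicate 2.

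In the nitric oxide and tetrahydrobiopterin list, 1 of 11 genes rose and none fell with FSL-1 against M-CSF. This was Gch1, the entry enzyme for tetrahydrobiopterin, a cofactor of Nos2. It read 7.09 and 7.23 in FSL-1 + nutlin-3a, 7.61 and 7.52 in FSL-1, and 6.59 and 6.76 in M-CSF, and the log2 difference for FSL-1 against M-CSF was 0.89 (SE 0.124, limma adjusted p = 0.00581, lost without FSL-1 replicate 1). With nutlin-3a 1 of 11 fell against FSL-1: Nostrin, which is known to bind endothelial nitric oxide synthase, by 0.76 (adjusted p = 0.0124, lost without any 1 of the 4 compared arrays). The other nitric oxide synthases were not called: Nos1 had -0.26 and Nos3 -0.24 for FSL-1 against M-CSF (adjusted p = 0.243 and 0.363).

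On the ornithine and proline side, 2 of 10 genes fell with nutlin-3a against FSL-1 and none rose. Aldh18a1, which starts proline and ornithine synthesis from glutamate, read 6.07 and 5.91 in FSL-1 + nutlin-3a, 7.86 and 7.72 in FSL-1, and 6.33 and 6.84 in M-CSF. It fell by 1.80 against FSL-1 (SE 0.176, limma adjusted p = 0.00151), kept without any 1 compared array. For FSL-1 against M-CSF it rose by 1.20 (adjusted p = 0.00729, lost without FSL-1 replicate 1), the only call among these 10 genes there. Oat, which links ornithine with glutamate, read 8.89 and 8.62 in FSL-1 + nutlin-3a, 9.50 and 9.62 in FSL-1, and 9.62 and 9.67 in M-CSF. It fell by 0.80 against FSL-1 (adjusted p = 0.0132, kept only without FSL-1 + nutlin-3a replicate 1 among the 4 compared arrays) and by 0.89 against M-CSF (adjusted p = 0.00494, kept without any 1 compared array).

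**Figure D4:**
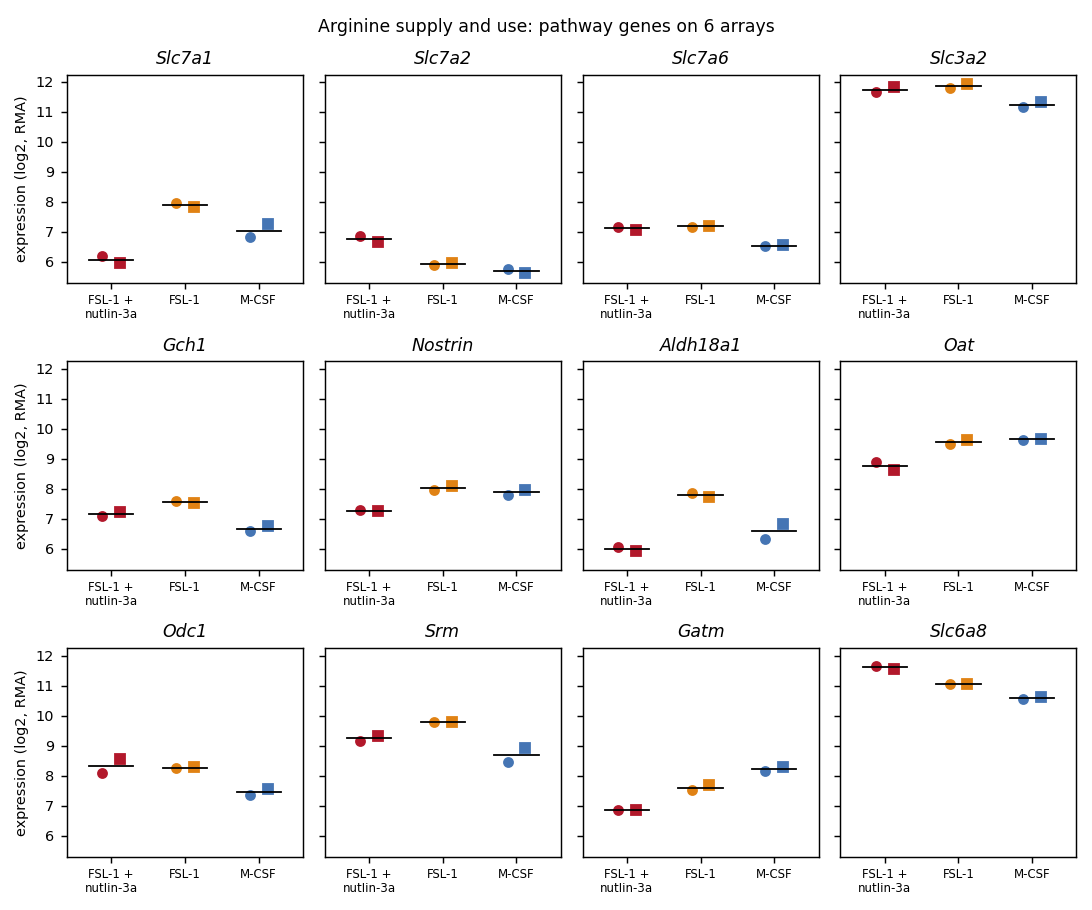
Expression (log2, RMA) of 12 called pathway genes on each array, with FSL-1 + nutlin-3a in red, FSL-1 in orange and M-CSF in blue; circles are replicate 1, squares replicate 2 and bars the group means. Slc7a1 and Aldh18a1 are highest in FSL-1 and lowest in FSL-1 + nutlin-3a, whereas Slc7a2 and Slc6a8 are highest and Gatm lowest in FSL-1 + nutlin-3a.

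Polyamine genes rose with FSL-1 in 3 of 13 cases against M-CSF, and none fell (list median 0.09). Srm, spermidine synthase, rose by 1.09 (limma adjusted p = 0.00766, lost without either FSL-1 array) and Odc1, which makes putrescine from ornithine, by 0.81 (adjusted p = 0.027, lost without any 1 compared array). Azin1, an activator of Odc1, read 9.34 and 9.42 in FSL-1 + nutlin-3a, 10.02 and 9.92 in FSL-1, and 9.26 and 9.53 in M-CSF. It rose by 0.57 with FSL-1 against M-CSF and fell by 0.59 with nutlin-3a against FSL-1 (adjusted p = 0.043 and 0.0405), the only call of the list there. The first of these Azin1 calls was kept only without M-CSF replicate 2 among the 4 compared arrays, and the second was lost without any 1.

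Creatine genes moved in opposite directions. Gatm, which uses arginine to start creatine synthesis, read 6.86 on both FSL-1 + nutlin-3a arrays, 7.50 and 7.69 in FSL-1, and 8.15 and 8.29 in M-CSF. It fell by 0.74 with nutlin-3a against FSL-1 (limma adjusted p = 0.0139) and by 1.36 against M-CSF (adjusted p = 0.000457). The creatine importer Slc6a8 read 11.64 and 11.56 in FSL-1 + nutlin-3a, 11.05 and 11.07 in FSL-1, and 10.56 and 10.61 in M-CSF, a rise of 0.54 against FSL-1 (adjusted p = 0.0299) and of 1.02 against M-CSF (adjusted p = 0.00115). Gatm also fell by 0.62 and Slc6a8 rose by 0.47 for FSL-1 against M-CSF (adjusted p = 0.0248 and 0.0454). The calls of both genes for FSL-1 + nutlin-3a against M-CSF were kept without any 1 compared array, and those in the other 2 comparisons were lost without any 1. They were the only calls among 9 other arginine users in the 3 comparisons.

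Of 22 genes of the TCA cycle and of enzymes linked to itaconate, 1 rose and 1 fell with nutlin-3a against FSL-1 (list median -0.18), and 8 had an unadjusted p under 0.05. Under the other analysis settings, leaving out no replicate, 1 to 6 of them were called lower there. Sugct, a mitochondrial CoA transferase, read 5.34 and 5.23 in FSL-1 + nutlin-3a, 4.64 and 4.42 in FSL-1, and 4.30 and 3.98 in M-CSF. Its M-CSF mean of 4.14 lay below 4.25, the median over all arrays of probe sets without a gene name. Sugct rose by 0.75 against FSL-1 (limma adjusted p = 0.0263) and Dld, a subunit of the oxoacid dehydrogenases, fell by 0.63 (adjusted p = 0.0194), both lost without any 1 compared array. Against M-CSF, Sugct was higher by 1.14 in FSL-1 + nutlin-3a (adjusted p = 0.00263) and Fh1, fumarase, lower by a log2 difference of -0.85 (adjusted p = 0.00405), both kept without any 1 compared array. Idh2, an isocitrate dehydrogenase, was the third call there (-0.48, adjusted p = 0.0338, lost without any 1), and 9 of 22 had an unadjusted p under 0.05. With FSL-1 against M-CSF 1 of 22 was called (7 at an unadjusted p under 0.05, and 0 to 5 called higher under the other settings), Idh3a (0.47, adjusted p = 0.048, lost without any 1 compared array). Clybl, an enzyme of itaconate breakdown, was not called (0.43 for FSL-1 against M-CSF, adjusted p = 0.0668).

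Of 9 other di- and tricarboxylate carriers, limma called 0 in each of the 3 comparisons, and 2, 0 and 3 had an unadjusted p under 0.05 for FSL-1 against M-CSF, FSL-1 + nutlin-3a against FSL-1 and FSL-1 + nutlin-3a against M-CSF. Slc13a5, the citrate carrier of the same family as Slc13a3, had a log2 difference of 0.35 for FSL-1 against M-CSF (adjusted p = 0.156).

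Among 15 measured transcription factors known to act on these genes, 2 rose and 2 fell with nutlin-3a against FSL-1, and 5 rose and 2 fell with FSL-1 against M-CSF. For FSL-1 + nutlin-3a against M-CSF, 2 rose and 1 fell. Fos, called higher in all 3 comparisons, averaged 7.45 in FSL-1 + nutlin-3a, 6.53 in FSL-1 and 5.32 in M-CSF. Its log2 difference for FSL-1 + nutlin-3a against M-CSF was 2.12 (limma adjusted p = 0.000719, kept without any 1 compared array). The Fos call for FSL-1 + nutlin-3a against FSL-1 was lost without any 1 compared array. Klf4, a zinc finger factor, read 6.20 and 6.26 in FSL-1 + nutlin-3a, 7.51 and 7.55 in FSL-1, and 5.72 and 5.92 in M-CSF. It fell by 1.30 with nutlin-3a against FSL-1 (limma adjusted p = 0.00123) and rose by 1.71 with FSL-1 against M-CSF (adjusted p = 0.000202). Cebpb, which Arg1 induction in mouse macrophages needs, rose by 1.12 with FSL-1 against M-CSF (adjusted p = 0.00444) and had a log2 difference of -0.58 with nutlin-3a against FSL-1, which was not called. The nuclear receptor Pparg had -1.13 for FSL-1 against M-CSF (adjusted p = 0.00206). These Klf4, Cebpb and Pparg calls were kept without any 1 compared array. Hif1a, an activator of Nos2, fell by 0.53 with nutlin-3a (adjusted p = 0.0343) and Cebpa rose by 0.68 (adjusted p = 0.0134), both lost without any 1 compared array.

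The inflammatory genes commonly read beside Nos2 rose in 5 of 10 cases with FSL-1 against M-CSF, while 1 fell (list median 0.57). The cytokine Tnf read 10.62 and 10.74 in FSL-1 + nutlin-3a, 9.89 and 10.02 in FSL-1, and 7.55 and 8.08 in M-CSF. It rose by 2.14 with FSL-1 (limma adjusted p = 0.000477), as did Ptgs2, the inducible cyclooxygenase, by 2.16 (adjusted p = 0.000494) and the feedback inhibitor Socs3 by 1.04 (adjusted p = 0.00191), each kept without any 1 compared array. With nutlin-3a against FSL-1, 1 rose and 2 fell, led by the costimulatory ligand Cd86, which fell by 1.94 (adjusted p = 0.000344, kept without any 1 compared array). Of 10 genes read beside Arg1 in alternatively activated macrophages, limma called 0 with FSL-1 against M-CSF (4 at an unadjusted p under 0.05). Retnla, Chil3 and Ccl17 averaged 2.57, 3.27 and 3.86 over the arrays, below 4.25, the median of probe sets without a gene name. They may hold little signal, and the other genes of this list averaged above that median. With nutlin-3a the mannose receptor Mrc1 was the single call, lower by a log2 difference of -0.85 against FSL-1 (adjusted p = 0.00541, lost without either FSL-1 array). Mrc1 was also the single call for FSL-1 + nutlin-3a against M-CSF (log2 difference -1.21, limma adjusted p = 0.000556, kept without any 1 compared array).

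Markers of other cell types were set beside these values. The 10 neutrophil markers averaged 5.08 and 5.02 in FSL-1 + nutlin-3a, 5.17 and 5.15 in FSL-1, and 4.62 on both M-CSF arrays. For FSL-1 against M-CSF 3 of 10 rose, S100a8 (2.40), Mmp8 (2.51) and Cxcr2 (0.60), while Ly6g, Mpo, Elane, Camp, Ltf, Retnlg and S100a9 were not called. S100a8 read 4.49 and 3.90 in M-CSF, around 4.25, the median over all arrays of probe sets without a gene name. With nutlin-3a Mmp8 alone fell (-0.62, limma adjusted p = 0.0339). Cxcr2 lost its call without either FSL-1 array or M-CSF replicate 1, and Mmp8 its nutlin-3a call without any 1 compared array. The 8 fibroblast markers averaged 4.97 and 5.02 in FSL-1 + nutlin-3a, 5.17 and 5.22 in FSL-1, and 4.97 and 5.02 in M-CSF, with 1 of 8 lower with nutlin-3a (Col1a2). Of these 8, limma called 0 for FSL-1 against M-CSF, and 2 had an unadjusted p under 0.05. The Col1a2 call was kept only without FSL-1 replicate 1 among the compared arrays, and was lost when a gene's probe sets were averaged. The dendritic cell, lymphocyte, and erythroid, mast cell and megakaryocyte lists each had 1 call with FSL-1 against M-CSF: Ccr7 (0.65), Cd4 (-1.01) and Pf4 (0.71). The Ccr7 call was lost without any 1 compared array, the Cd4 call without FSL-1 replicate 1, and the Pf4 call was kept only without M-CSF replicate 2. With nutlin-3a against FSL-1 Pf4 fell by 0.86 (limma adjusted p = 0.00613, lost without either FSL-1 array), as Acod1 and Slc13a3 did, and Cd4 rose by 0.64 (adjusted p = 0.0405, lost without any 1 compared array). The part of other cells in the Acod1 and Slc13a3 values was not tested, and in these bulk samples fewer cells of a type cannot be told apart from less RNA per cell.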

How the data were processed

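Total RNA of 6 samples, 2 per group, was amplified with a NuGEN kit for small amounts and read on arrays, per the labels' protocols. The authors deposited log2 expression values, for which the submitters' processing notes name RMA and Affymetrix Expression Console 1.4. RMA equalises the distributions of the arrays, so a change shared by most genes would not be seen. No source used here gives the genome build of the probe annotation. There were 34390 probe sets, of which 9055 carried no gene symbol and 1814 more than 1. The other 23521 gave 22180 genes. Where several probe sets name a gene (1082 genes), the one with the highest mean over all arrays was used. Every per-sample column was used.

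A limma 3.58.1 fit (R 4.3.3) of all 6 arrays, with groups as the only term and 4.88 prior and 3 residual degrees of freedom, gave differences, 95% intervals and Benjamini-Hochberg adjusted p-values over all genes. The scripts were tested on simulated data. Figures were drawn with matplotlib 3.10.9 in Python 3.11.15. All 7 genes were described. Up to 3 called genes per pathway list and comparison were picked by adjusted p, not all of which are given here. Further list genes were named after their values were seen. The genes, lists and motifs were chosen with earlier results of these data known. Replicate numbers come from the sample titles. The differences between replicates 1 and 2 correlated at -0.025 between FSL-1 + nutlin-3a and FSL-1, 0.017 between FSL-1 + nutlin-3a and M-CSF, and -0.188 between FSL-1 and M-CSF, so the numbers were not taken as pairs. The alternatives were another variance model, repeated quantile normalisation, median centring, averaged probe sets, a filter on low genes, fits of the compared groups alone, weights per array, a block for the replicate number, a minimum change of 1.5-fold and the removal of each array.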

Additional observations from a re-analysis of the deposited data

How the results depend on the processing

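With the 7 genes in 3 comparisons and 16 settings, 327 values were obtained: 303 kept direction and, where tested, side of the threshold, 16 no longer passed and 8 changed sign. The Acod1 and Slc13a3 differences from M-CSF, which were not tested, were counted as kept by another rule. They had to keep direction and move by less than the larger replicate SD of the groups compared. The sign changes were all small differences that had not been called: Ass1 for FSL-1 + nutlin-3a against FSL-1 with arrays centred on their medians (-0.00826), and, with 1 array left out, Ass1 (-0.0828 to 0.0948), Arg1 (-0.175 to 0.115) and Arg2 (-0.0492 to 0.143) in that comparison and Asl for FSL-1 against M-CSF (-0.039 to 0.0603). The cause was not tested.

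A variance model with trend and robust estimation called 2744 genes for FSL-1 against M-CSF, 2658 for FSL-1 + nutlin-3a against FSL-1 and 3337 for FSL-1 + nutlin-3a against M-CSF, with 37, 34 and 41 pathway genes. Keeping only genes whose mean was above the median called 2682, 2579 and 3290, with 32 pathway genes for FSL-1 + nutlin-3a against FSL-1 and 35 for FSL-1 + nutlin-3a against M-CSF. This filter leaves out Nos2, Arg1 and Arg2, so of the 5 genes tested against M-CSF only Ass1 and Asl remained, and 0 were called in either comparison. On the compared arrays alone 0 of the 5 were called in these comparisons, Arg2 having adjusted p = 0.0658 and 0.0571. With 1 of the 6 arrays left out, 451 to 1299 genes were called for FSL-1 against M-CSF, 352 to 1212 for FSL-1 + nutlin-3a against FSL-1 and 1158 to 1529 between FSL-1 + nutlin-3a and M-CSF. Of the 5 genes tested against M-CSF 0 to 1 were then called with FSL-1 and 0 to 1 with FSL-1 + nutlin-3a, and of the 7 tested for FSL-1 + nutlin-3a against FSL-1 1 to 2. In the order of comparisons given, pathway genes had 8 to 19, 4 to 17 and 15 to 19 calls. The group that lost an array has 1 left, assumed to vary like the others.

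With the replicate block, 1167 genes were called for FSL-1 against M-CSF, 1005 for FSL-1 + nutlin-3a against FSL-1 and, between FSL-1 + nutlin-3a and M-CSF, 1725. The block left 0 of the 5 tested genes called for FSL-1 against M-CSF, with Arg2 at adjusted p = 0.0718, and Acod1 and Slc13a3 passed for FSL-1 + nutlin-3a against FSL-1 (0.000856 and 0.0222). Since FSL-1 and M-CSF numbers correlated at -0.188, a fit that swapped the M-CSF numbers in the block was added after seeing the data. It called 1278, 1148 and 1971 genes, and 0 of the 5 tested genes for FSL-1 against M-CSF. Among the pathway calls named, both blocks also lost Azin1 and Hif1a for FSL-1 + nutlin-3a against FSL-1. For FSL-1 against M-CSF they lost Azin1, Idh3a and Slc6a8, and for FSL-1 + nutlin-3a against M-CSF they lost Idh2. The uncrossed block also lost Slc6a8 and the marker Cd4 for FSL-1 + nutlin-3a against FSL-1. Both blocks lost the marker calls of Cxcr2 (FSL-1 against M-CSF) and Mmp8 (FSL-1 + nutlin-3a against FSL-1).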
